A study of Mus musculus with 4 samples.

Results

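The genes described here are the homeostatic microglia genes, a list of 10 symbols that mark microglia of the undisturbed brain. The list was P2ry12, P2ry13, Tmem119, Cx3cr1, Csf1r, Sall1, Siglech, Gpr34, Olfml3 and Aif1. Symbols were mapped to the gene identifiers of the count table, and 8 of the 10 genes were analysed, among 12700 genes in all. P2ry13 and Gpr34 were not analysed here. The study examined the Ids-ko mouse, a model of mucopolysaccharidosis type II (Hunter syndrome) in which Ids, the gene of the lysosomal enzyme iduronate 2-sulfatase, is disrupted. Brains of Ids-ko (H) and wild type (WT) C57BL/6 mice aged 9 months were divided into cerebral cortex (Cx) and midbrain, diencephalon and hippocampus (M). This gave the libraries CxH, CxWT, MH and MWT, each sequenced once from the pooled polyA RNA of 7 mice. The paper states that each brain was divided into both areas, so as labelled CxH and MH share their mice, as do CxWT and MWT. With 1 library per condition there was no replicate, no test was run, and all errors and 95% intervals cover counting error only.

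Microglia are the resident macrophages of the brain parenchyma. They depend on the receptor Csf1r for survival and on TGF-beta signalling and the transcription factors Spi1 (PU.1), Irf8 and Sall1 for identity. In the quiet state they carry receptors that sense nucleotides, chemokines and glycans on neighbouring cells. In several settings of disease and lysosomal storage they lower part of this set and raise genes such as Clec7a, Spp1, Lpl and Apoe. A change of these transcripts in whole tissue can therefore come with a change of microglial number, of microglial state, or of both. In bulk RNA, fewer cells of a type and less RNA per cell cannot be told apart.

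The libraries held between 16380080 (MWT) and 23475080 (CxH) reads on genes. Values are given as reads per 1000000 aligned reads (RPM), and 3 reads correspond to between 0.0779 and 0.104 RPM. The labels were checked on Ids, which was measured at 135 RPM in CxH and 354 in CxWT, and at 368 in MH and 155 in MWT. The disrupted gene was thus lower in the library labelled as Ids-ko in Cx, but in M it was lower in the library labelled as wild type. Summed markers of cerebral cortex (10 genes) reached 958 RPM in CxH and 782 in MH, and 170 in CxWT and 123 in MWT. Summed markers of midbrain and diencephalon (13 genes with counts of 14) reached 22.9, 503, 34.6 and 438 RPM. Here and below, values given without the name of a library are in the order CxH, CxWT, MH and MWT. Area markers therefore separated CxH and MH from CxWT and MWT, and Ids separated CxH and MWT from CxWT and MH, so neither marker set followed the labels in all 4 libraries. For this reason all 6 pairs of libraries are given below, and the direction of each ratio refers to libraries as labelled. The pairs CxH vs. MH and CxWT vs. MWT are those in which the summed area markers were most alike and Ids differed. Genotype and area as labelled cannot be told apart from these differences in CxH vs. CxWT and in MH vs. MWT.

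The promoters of 4 of these genes are shown. P2ry12 had the lowest GC content of the group, and Siglech, like P2ry12, holds the letters GGAAGT. Cx3cr1 was the gene nearest to the median profile, and Aif1 was the gene with the widest range. Each line is the stretch of 250 bases before the transcription start (RefSeq, GRCm38.p6), written 5′ to 3′ on the strand of the gene, at chr3:59262986-59263235 on the minus strand for P2ry12, chr7:55767934-55768183 on the plus strand for Siglech, chr9:120068297-120068546 on the minus strand for Cx3cr1 and chr17:35176053-35176302 on the minus strand for Aif1. Capitals mark GGAAGT, the core of the PU.1 and ETS motif, or its reverse complement.
P2ry12: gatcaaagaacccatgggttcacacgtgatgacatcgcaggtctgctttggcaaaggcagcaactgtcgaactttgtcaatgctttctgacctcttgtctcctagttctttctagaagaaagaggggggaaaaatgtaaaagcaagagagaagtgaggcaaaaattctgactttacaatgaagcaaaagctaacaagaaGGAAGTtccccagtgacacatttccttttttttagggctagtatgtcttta
Siglech: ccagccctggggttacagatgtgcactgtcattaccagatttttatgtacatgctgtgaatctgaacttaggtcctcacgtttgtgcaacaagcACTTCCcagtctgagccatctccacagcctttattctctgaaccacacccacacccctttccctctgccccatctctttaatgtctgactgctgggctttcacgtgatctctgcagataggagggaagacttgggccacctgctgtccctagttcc
Cx3cr1: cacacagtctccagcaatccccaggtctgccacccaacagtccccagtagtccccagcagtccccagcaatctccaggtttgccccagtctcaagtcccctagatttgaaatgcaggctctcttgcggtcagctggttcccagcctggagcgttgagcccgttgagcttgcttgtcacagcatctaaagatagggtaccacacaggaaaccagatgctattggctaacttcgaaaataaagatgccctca
Aif1: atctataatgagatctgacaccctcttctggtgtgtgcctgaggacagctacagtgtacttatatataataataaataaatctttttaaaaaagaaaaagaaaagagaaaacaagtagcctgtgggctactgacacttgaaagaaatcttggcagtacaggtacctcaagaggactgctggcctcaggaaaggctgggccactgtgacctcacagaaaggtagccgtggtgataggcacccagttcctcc
In P2ry12 the motif began 51 bases before the start and lay on the strand of the gene, and in Siglech it lay 156 bases before the start on the other strand. Neither the Cx3cr1 nor the Aif1 window held it. Searched on both strands, GGAAGT was found in 3 of 6 genes of the group with a promoter used, which is 3 of 8 windows, and in 19.7% of 32851 promoters of the same length. The third was Sall1, in 1 of the 3 windows before its alternative starts, and Olfml3 held none. The longer form GAGGAAGT, which contains GGAAGT, was in none of the 6 genes and in 2.44% of all promoters, and GGAANN followed by GAAA, the composite site of PU.1 and an interferon regulatory factor, was in none of the 6 and in 2.30%. The windows differed in base composition, from 41.6% G and C in P2ry12 and 43.6% in Aif1 to 50.8% in Siglech and 53.6% in Cx3cr1. A match of letters is a description and not a bound site. The promoters of Tmem119 and Csf1r were not used here.

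Per length of transcript, the receptors were the most abundant of the group. Csf1r, the receptor of the cytokines Csf1 and Il34, was measured at 21.1 RPM per kilobase of transcript (RPKM) in CxH and 17.7 in MH, and 13.3 in CxWT and 14.0 in MWT. Cx3cr1, the receptor of the neuronal chemokine fractalkine (Cx3cl1), followed at 19.6, 12.7, 15.7 and 15.5 RPKM, and P2ry12, the ADP receptor that directs microglial processes to sites of damage, at 15.0, 12, 16 and 15.6. Tmem119, a transmembrane protein used as a marker that separates microglia from blood-derived macrophages, had 15.9, 9.19, 11.1 and 7.97 RPKM. Lower levels were found for the lectin Siglech (mean over the 4 libraries 7.33 RPKM), for Sall1 (5.64) and for the secreted glycoprotein Olfml3 (5.42). Aif1, which codes for the calcium-binding protein Iba1 that is widely stained to show microglia, was the lowest at 2.92 RPKM. In this order each gene overlapped with the next in its range over the libraries. Neighbours could still differ within a library. Aif1 lay below Olfml3 in all 4 libraries with intervals apart. The closest case was MWT, with 3.50 to 5.15 RPKM for Aif1 and 5.43 to 6.40 for Olfml3. Siglech held rank 5 and Aif1 rank 8 in every library, while P2ry12 ranked 1 in MWT and 4 in CxH.

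**Figure D1:**
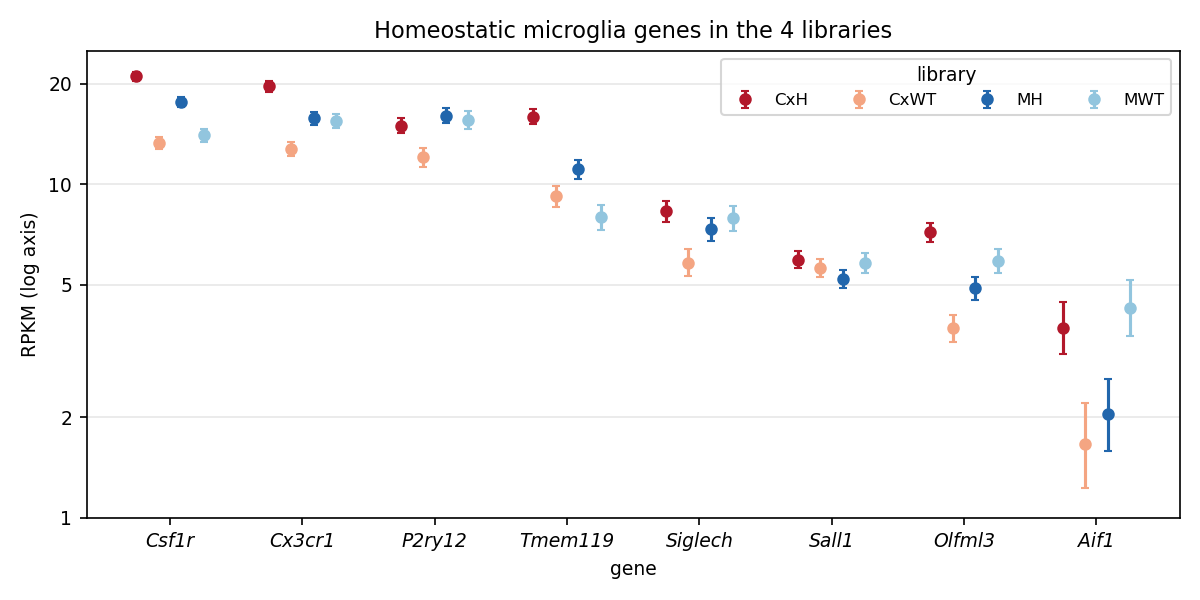
Level of the 8 homeostatic microglia genes in RPKM (vertical axis, log scale) in CxH, CxWT, MH and MWT, with 1 point per library and bars for the exact Poisson 95% interval. CxWT is the lowest library in 6 of the 8 genes, while the points of Sall1 lie close together between 5.19 and 5.94 RPKM.

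Among the receptors, Csf1r was measured in RPM at 99.1 (interval 96.0 to 102) in CxH and 83.1 (80.2 to 86.1) in MH, and at 62.4 (59.8 to 65.2) in CxWT and 65.9 (63 to 68.9) in MWT. Its highest library was 1.59-fold above its lowest, and CxWT and MWT had overlapping intervals. Cx3cr1 had 73.3 RPM in CxH and 58.7 in MH, and 47.5 in CxWT and 57.7 in MWT, where CxWT stood below and CxH above an M pair that overlapped. P2ry12 had 35.0, 28.1, 37.5 and 36.5 RPM, so that CxWT alone was set apart and the other 3 libraries overlapped with their neighbours. In mm9, P2ry12 spans chr3:59020193-59066753 on the minus strand and lies within Med12l, which is transcribed from the other strand. Csf1r likewise overlaps Hmgxb3 on the other strand, and whether counting used strand is not given in the sources used here, so reads of these overlapping genes may not be fully separated.

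Of the surface and secreted proteins, Tmem119 (chr5:114243738-114250525) had 35.7 RPM in CxH and 24.9 in MH, and 20.6 in CxWT and 17.9 in MWT. It spanned a 2.0-fold range with no overlap between neighbouring libraries, and it was the only gene of the 8 with its lowest value in MWT. Siglech (chr7:63023548-63034295), a sialic acid-binding lectin that signals through the adaptor Tyrobp, had 19.1, 13.4, 16.8 and 18.2 RPM, with CxWT set apart from the rest. Olfml3 (chr3:103537623-103541924) had 24.5, 12.6, 16.7 and 20.2 RPM, again with every library apart from its neighbours. Olfml3 overlaps Gm16520, a transcript on the same strand, with which it could share reads.

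Sall1 (chr8:91551147-91568061), which keeps microglia in their resting identity, showed the smallest range of the group. Its levels were 31.2 RPM in CxH and 27.2 in MH, and 29.5 in CxWT and 30.5 in MWT, a 1.15-fold span in which every library overlapped with its neighbours. Aif1 (chr17:35307936-35313013) showed the widest range, 2.56-fold, on the fewest reads. It had 3.25 RPM (2.70 to 3.87, 125 reads) in CxH and 3.73 (3.06 to 4.50, 108 reads) in MWT, and 1.46 (1.08 to 1.93, 49 reads) in CxWT and 1.79 (1.39 to 2.28, 67 reads) in MH. CxH and MWT were high and overlapped, CxWT and MH were low and overlapped, and the intervals of the first pair did not reach those of the second. Cx3cr1 (chr9:119957811-119977400) was the gene closest to the median profile of the group, and Aif1 the farthest from it.

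In CxH vs. CxWT all 8 genes were above 0 on the log2 scale, against 42.5% of all genes, and 3 were past the fold threshold of the study (a log2 ratio of 0.7, 1.62-fold), against a background of 9.59%. At a log2 threshold of 1 it was 1 gene, Aif1, against 5.5%. The 3 genes were Aif1, with a log2 ratio of 1.16 ± 0.24 (counting SE), Olfml3 with 0.96 ± 0.084 and Tmem119 with 0.79 ± 0.067. Csf1r (0.67 ± 0.039) and Cx3cr1 (0.63 ± 0.045) stood just inside the threshold. Siglech followed with 0.51 ± 0.086, P2ry12 with 0.32 ± 0.061 and Sall1 with 0.081 ± 0.062. The median of the 8 was 0.65, where the median of all genes was -0.093. None was lower past the threshold, against 11.6% of all genes. The summed reads of the 8 genes gave 321 RPM in CxH and 216 in CxWT, which is 1.49-fold. With the scaling factors of TMM or DESeq2, Csf1r and Cx3cr1 also passed, for 5 genes of 8. After a correction for GC content and length of transcripts, P2ry12 had 0.82 and Siglech 0.73, while Tmem119 had 0.52.

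In MH vs. MWT the same genes were split evenly, with 4 above and 4 below 0 (45.5% of all genes were above), and none was higher past the threshold (background 12.4%). Tmem119 had a log2 ratio of 0.48 ± 0.079 and Csf1r 0.33 ± 0.042, whereas P2ry12 (0.040 ± 0.059) and Cx3cr1 (0.024 ± 0.047) did not differ beyond counting error. Siglech was at -0.11 ± 0.085, Sall1 at -0.16 ± 0.066 and Olfml3 at -0.27 ± 0.083. Aif1, at -1.06 ± 0.22, was the single gene lower past the threshold, against 12.9% of all genes. The median was -0.045, close to that of all genes at -0.066. The sum of the 8 genes was 267 RPM in MH and 251 in MWT, 1.06-fold, and without Csf1r and Cx3cr1 its log2 ratio was -0.023 ± 0.032. After the correction for GC content and length, P2ry12 had 0.59, Tmem119 0.036, Csf1r -0.0065 and Olfml3 -0.52, so the order of the genes in this pair changed with that setting.

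**Figure D2:**
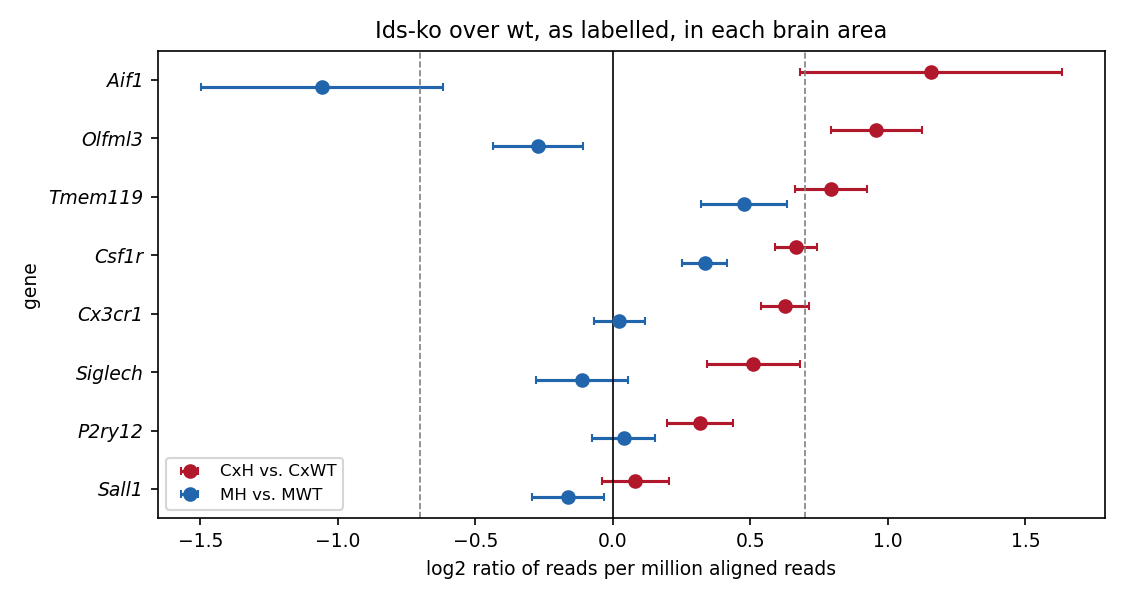
Log2 ratio of RPM of the 8 homeostatic microglia genes in CxH vs. CxWT and in MH vs. MWT (horizontal axis, points with 95% counting intervals, dashed lines at the fold threshold of 0.7 in either direction). All Cx points lie above 0, with 3 past the line, while the M points lie on both sides of 0 and Aif1 alone passes the lower line at -1.06.

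The remaining pairs change which libraries are set side by side. In CxH vs. MH, both with high cortex markers and with Ids lower in CxH, 7 of 8 genes were above 0, against 51.9% of all genes, and the median was 0.29, against 0.015. Aif1 (0.86 ± 0.22) was past the threshold, for 1 gene of 8 against a background of 2.65%, and none was lower (background 1.24%). None passed a threshold of 1, which 0.929% of all genes did. Olfml3 (0.56 ± 0.074) and Tmem119 (0.52 ± 0.061) were next, Cx3cr1 (0.32 ± 0.041), Csf1r (0.25 ± 0.035), Sall1 (0.20 ± 0.062) and Siglech (0.18 ± 0.078) were in between, and P2ry12 was at -0.098 ± 0.055. The nucleotide receptor was thus the only one of the 8 that was not higher in CxH in this pair, and it was 0.18 after the correction for GC content and length.

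In CxWT vs. MWT, both with high midbrain and diencephalon markers and with Ids lower in MWT, 1 of 8 genes was above 0, against 55.3% of all genes, and the median was -0.33, against 0.045. Aif1 (-1.36 ± 0.25) was lower past the threshold, for 1 gene of 8 against a background of 2.29%, and none was higher (background 5.7%). Olfml3 was at -0.67 ± 0.092, Siglech at -0.44 ± 0.093, P2ry12 at -0.37 ± 0.065 and Cx3cr1 at -0.28 ± 0.050. Csf1r (-0.077 ± 0.046) and Sall1 (-0.048 ± 0.067) did not differ beyond counting error, and Tmem119 was the exception at 0.21 ± 0.084. After the correction for GC content and length Tmem119 was at -0.17, P2ry12 at -0.047, Siglech at -0.21, Csf1r at -0.33 and Sall1 at -0.19. As counted, Aif1, Olfml3, Siglech and Cx3cr1 were thus higher by more than 2 counting errors in the library with less Ids, in this pair and in the one before it.

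In CxH vs. MWT, the libraries with less Ids, Tmem119 was past the threshold (1.0 ± 0.074), for 1 gene of 8 against a background of 15.7%, and none was lower (background 15.2%). Above 0 were 6 of the 8 and 47.8% of all genes. The same ratio was 0.59 ± 0.040 for Csf1r, 0.34 ± 0.045 for Cx3cr1 and 0.28 ± 0.076 for Olfml3. After the correction for GC content and length it was 0.18 for Csf1r, -0.052 for Olfml3, 0.51 for Siglech, 0.77 for P2ry12, -0.17 for Sall1 and 0.35 for Tmem119. As counted it lay within 2 counting errors of 0 for Siglech (0.066), Sall1 (0.033), P2ry12 (-0.058) and Aif1 (-0.20). In MH vs. CxWT, the libraries with more Ids, no gene was past the threshold, where 6.57% of all genes were higher and 9.06% lower. There 7 of the 8 genes were above 0, against 37.8% of all genes, and lay between 0.27 (Tmem119) and 0.41 (P2ry12), and Sall1 was at -0.12 ± 0.064.

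**Figure D3:**
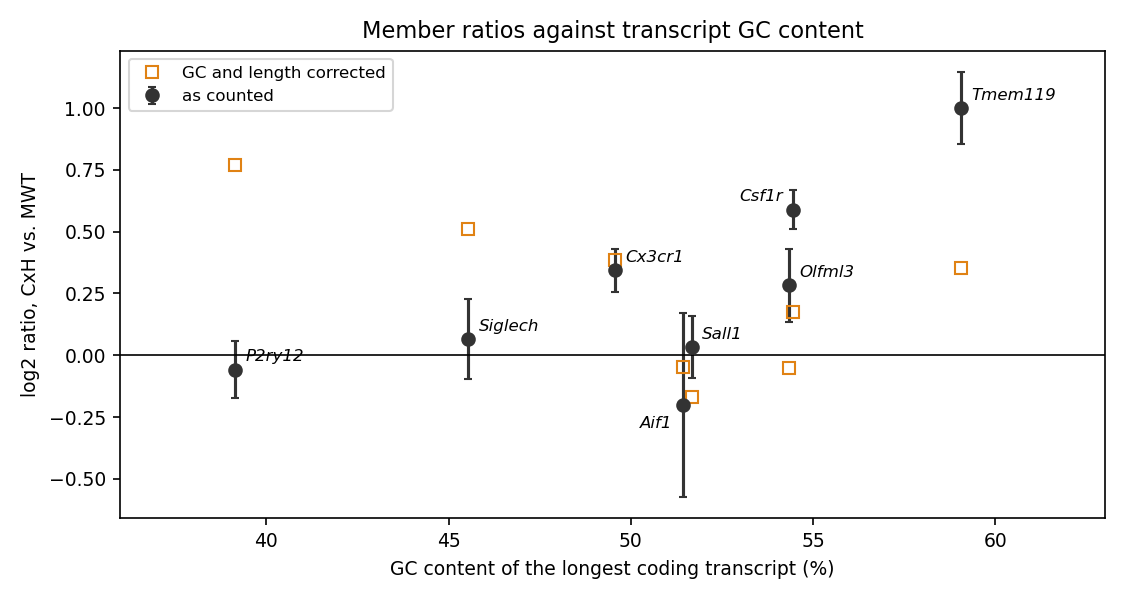
Log2 ratio of CxH vs. MWT (vertical axis) against the GC content of the longest coding transcript in percent (horizontal axis) for the 8 genes, as counted (black, with 95% counting intervals) and after a correction fitted over all genes for GC content and length (orange squares). As counted, the value is -0.058 for P2ry12, the gene with the lowest GC content, and 1.0 for Tmem119, the gene with the highest, and after the correction it is 0.77 and 0.35.

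The base composition of the transcripts moved with these ratios. GC content ran from 39.1% in P2ry12 and 45.5% in Siglech over 49.6% in Cx3cr1, 51.4% in Aif1, 51.7% in Sall1, 54.3% in Olfml3 and 54.5% in Csf1r to 59.1% in Tmem119. Across 10822 genes, which are not independent replicates and share their libraries, the Spearman correlation of the CxH vs. MWT ratio with GC content was 0.683. It was also high for CxWT vs. MWT (0.626) and CxH vs. MH (0.573), lower for MH vs. MWT (0.486) and CxH vs. CxWT (0.459), and lowest for MH vs. CxWT (0.169). Under the correction the AT-rich P2ry12 changed most in CxH vs. CxWT, from 0.32 to 0.82, and in MH vs. MWT, from 0.040 to 0.59. In CxWT vs. MWT Tmem119 changed more than P2ry12. The part of GC content in the differences between the 8 genes was not tested.

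Within the reads of the 8 genes, shares are not affected by the scaling of a library. Csf1r took the largest share, 30.8% (30.0 to 31.7, Clopper-Pearson) in CxH, 31.1% (30.2 to 32.1) in MH, 29.0% (27.9 to 30.0) in CxWT and 26.3% (25.3 to 27.3) in MWT. Cx3cr1 was steady at 22.8%, 22.0%, 22.0% and 23%, with intervals that all overlapped. P2ry12 was lowest in CxH, with 10.9% (10.4 to 11.5), against 13% in CxWT, 14.1% in MH and 14.6% in MWT. The share of this receptor was thus set apart in CxH as counted. After the correction for GC content and length it was not low against CxWT or MWT. There P2ry12 had 0.82 in CxH vs. CxWT against a median of 0.70 for the 8 genes, and 0.77 in CxH vs. MWT against 0.26. In CxH vs. MH it stayed the lowest of the 8, at 0.18 against a median of 0.31. As counted, the share of Tmem119 ran the other way, from 11.1% in CxH over 9.56% in CxWT and 9.32% in MH to 7.13% in MWT. After the same correction Tmem119 had 0.52 in CxH vs. CxWT, below the median of 0.70, and 0.35 in CxH vs. MWT against 0.26. Sall1 had 9.72% in CxH and 10.2% in MH, against 13.7% in CxWT and 12.2% in MWT, which is the split given by the area markers. A share also depends on the reads of the other genes, and the RPM of Sall1 did not show this split. It was 31.2 in CxH and 27.2 in MH, and 29.5 in CxWT and 30.5 in MWT. Aif1 had 1.01% in CxH and 1.49% in MWT, against 0.676% in CxWT and 0.672% in MH, and by its intervals MWT alone (1.22 to 1.79) was set apart, since CxH (0.842 to 1.20) overlapped CxWT and MH. Olfml3 with 7.64%, 5.86%, 6.26% and 8.05% had CxH and MWT above CxWT and MH with no overlap, which is the split given by Ids.

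**Figure D4:**
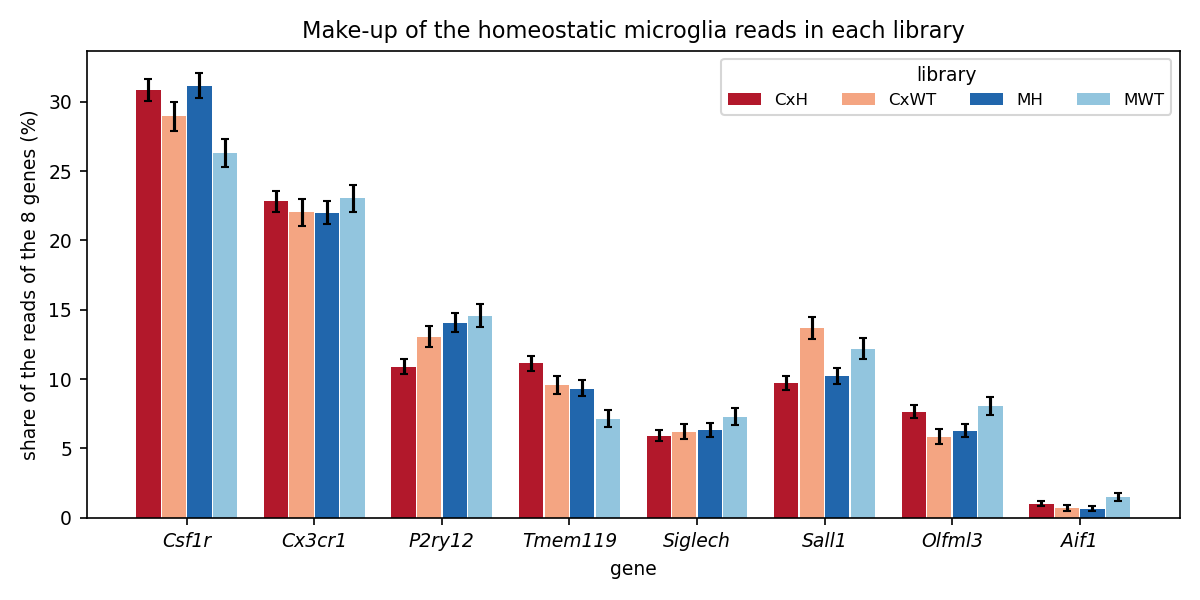
Share of the summed reads of the 8 homeostatic microglia genes taken by each gene (vertical axis, percent) in the 4 libraries, with exact Clopper-Pearson 95% intervals. Cx3cr1 stays between 22.0% and 23%, whereas Tmem119 lies between 7.13% in MWT and 11.1% in CxH. Shares are as counted, without the correction for GC content and length.

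The ligands of these receptors were measured in the same libraries. Cx3cl1, the fractalkine that neurons present to Cx3cr1, was measured at 668 RPM (CxH), 303 (CxWT), 548 (MH) and 236 (MWT). Its log2 ratio was 1.14 ± 0.017 for Cx and 1.22 ± 0.020 for M. Il34, the neuronal ligand of Csf1r, had 36.9, 18.9, 32.7 and 13.5 RPM, with 0.96 ± 0.069 and 1.28 ± 0.084. Both were high in the libraries with high cortex markers and low in the others. Csf1, the other ligand, had 23.1, 23.9, 19.5 and 23.3 RPM, with -0.051 ± 0.070 and -0.26 ± 0.077. The ligands and their receptors thus did not share 1 profile, since in MH vs. MWT the ratio was 1.28 for Il34 and 0.33 for Csf1r.

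Tgfb1, the ligand of the pathway that keeps microglia homeostatic, had 7.74 RPM in CxH and 3.51, 3.32 and 3.14 in CxWT, MH and MWT. Its receptor subunit Tgfbr1 had 28.5, 31.4, 29.3 and 38.1 RPM, and Tgfbr2 had 21.7, 16.3, 14.1 and 20.9. Tyrobp, the adaptor of Siglech and of the lipid receptor Trem2, had 18.9, 7.38, 7.44 and 21.0 RPM, a log2 ratio of 1.36 ± 0.11 in Cx and -1.5 ± 0.10 in M. It was therefore high where Ids was low, as was Aif1. Of the 16 genes of ligands and signalling with counts (of 17), 11 were higher past the threshold (background 9.59%) and none lower (11.6%) in Cx, with Smad2 lowest at -0.27. In M 4 were higher (12.4%), with Smad3, a TGF-beta effector, at 1.58, and 1 was lower (12.9%), with medians of 0.86 in Cx and 0.014 in M. In CxH vs. MH 3 were higher (2.65%) and none lower (1.24%), with a median of 0.30. In CxWT vs. MWT none was higher (5.7%) and 2 were lower (2.29%), with a median of -0.11.

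Other microglial genes, not all of them limited to the resting state, were also mostly higher in CxH than in CxWT. In M their counts past the threshold lay near those of all genes. Of 27 with counts (of 30), 15 were higher past the threshold in CxH vs. CxWT (background 9.59%) and none lower (11.6%), with a median of 0.80. Crybb1, a crystallin found in mature microglia, was the highest at 1.83, and Rgs10, a brake on G protein signalling, the lowest at -0.47. In MH vs. MWT 4 were higher (12.4%) and 5 lower (12.9%), and the median was -0.19. Slc2a5, the fructose transporter of microglia, was the highest there at 1.11, and Ctss, a lysosomal protease, the lowest at -1.45. In CxH vs. MH 11 of the 27 were higher past the threshold (2.65%) and none lower (1.24%), with a median of 0.49, and in CxWT vs. MWT 1 was higher (5.7%) and 6 lower (2.29%), with a median of -0.41.

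Genes of activated microglia had medians farther from 0 than the homeostatic ones in 3 of the 6 pairs. Of 23 with counts (of 26), 10 were higher (background 9.59%) and 2 lower (11.6%) past the threshold in CxH vs. CxWT, with a median of 0.59, between Ch25h, which makes 25-hydroxycholesterol, at 2.49 and the secreted phosphoprotein Spp1 at -0.96. In MH vs. MWT 1 was higher (12.4%) and 14 lower (12.9%), with a median of -0.91, between the lipase Lpl at 0.82 and the glucan receptor Clec7a at -2.90. In CxH vs. MH 12 were higher (2.65%) and none lower (1.24%), with a median of 0.92 where the homeostatic genes had 0.29. In CxWT vs. MWT none was higher (5.7%) and 10 were lower (2.29%), with a median of -0.68 where the homeostatic genes had -0.33. In CxH vs. MWT 1 was higher (15.7%) and 7 lower (15.2%), with a median of -0.11, and in MH vs. CxWT 1 was higher (6.57%) and 5 lower (9.06%), with a median of -0.22.

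Set against the summed reads of the 8 homeostatic genes, Clec7a had 11.9 reads per 1000 (CxH), 13.9 (CxWT), 6.82 (MH) and 54.3 (MWT). MWT stood far above the other libraries in this measure, and CxH did not. Clec7a and the genes that follow were named as the highest or lowest of a list in the Cx or M ratio. A difference within those pairs was thus favoured by the choice of genes. Tyrobp had 58.9, 34.2, 27.9 and 83.8 reads per 1000, and Ctss had 226, 194, 148 and 429. Both had their highest values in MWT and CxH. Spp1, with 34.6, 100.1, 32.1 and 124, and Rgs10, with 43.7, 90.3, 46.7 and 104, were instead high in CxWT and MWT, the libraries with high midbrain and diencephalon markers. Ch25h had 7.28, 1.93, 2.21 and 8.0 reads per 1000, on 90, 14, 22 and 58 reads. Lpl, with 29.2, 20.8, 38.3 and 23.2, and Slc2a5, with 17.1, 25.4, 27.1 and 13.4, were highest in MH. For Slc2a5 the intervals of MH and CxWT overlapped. Crybb1 had 5.26, 2.21, 3.01 and 2.90 reads per 1000, on 65, 16, 30 and 21 reads.

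**Figure D5:**
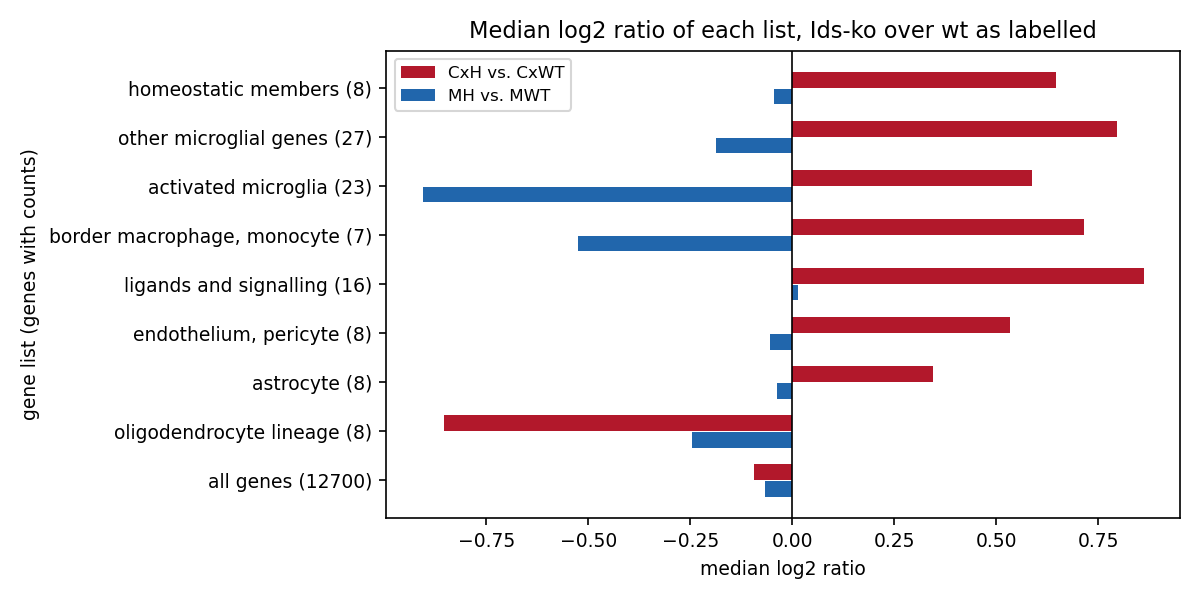
Median log2 ratio of each gene list (horizontal axis) in CxH vs. CxWT and in MH vs. MWT, with the homeostatic microglia genes beside ligands, other microglia, macrophage and other cell type lists and all genes. The homeostatic genes have a median of 0.65 in Cx and -0.045 in M, and the genes of activated microglia 0.59 and -0.91.

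Markers of other cells moved in the same libraries. Markers of border macrophages and monocytes, which share many genes with microglia, were low (7 genes with counts of 14), with summed levels of 42.8, 33.6, 30.6 and 44.8 RPM. In Cx 4 of the 7 were higher past the threshold (background 9.59%) and none lower (11.6%), from F13a1 at 0.23 to S100a9 at 1.21. In M 1 was higher (12.4%), the carbonyl reductase Cbr2 at 1.49 on 29 and 8 reads, and 3 were lower (12.9%), with Ms4a7 at -2.11 on 9 and 30 reads. None of the 7 was at 0 in any library. The sum was higher in CxH and MWT than in CxWT and MH, the split given by Ids. Ly6c2 alone gave most of its reads, with 1104 of 1646 in CxH and 898 of 1296 in MWT. Cbr2 did not follow this split and was lowest in MWT, at 0.276 RPM. Every other gene of the 7 was higher in CxH and MWT than in CxWT and MH. The part of these cells in the values of Aif1, Csf1r and Cx3cr1, which they also express, was not tested.

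Astrocyte markers summed to 3105, 2239, 2585 and 2834 RPM and did not move together. In Cx 2 of 8 were higher past the threshold (background 9.59%) and 2 lower (11.6%), from the bicarbonate transporter Slc4a4 at -0.86 to Gfap, the filament of reactive astrocytes, at 1.11. In M none was higher (12.4%) and 3 were lower (12.9%), from the water channel Aqp4 at -1.30 to the glutamate transporter Slc1a2 at 0.43. Gfap was among the 3, at -1.13, and had 603, 280, 253 and 555 RPM. Oligodendrocyte markers summed to 4821, 9119, 5010 and 7233 RPM, and 6 of 8 were lower past the threshold in Cx (background 11.6%) and 3 of 8 in M (12.9%). In CxH vs. MH none of these markers was higher (2.65%) or lower (1.24%). In CxWT vs. MWT 1 was higher (5.7%) and none lower (2.29%). Endothelial and pericyte markers summed to 208, 158, 174 and 181 RPM. In Cx 1 of 8 was higher past the threshold (background 9.59%), the tight junction protein Cldn5 at 0.72, and none lower (11.6%). In M none was higher (12.4%) or lower (12.9%). By sign, 7 of these 8 markers were above 0 in Cx (42.5% of all genes), and 4 in M (45.5%). Their median was 0.53 in Cx, -0.054 in M and 0.33 in CxH vs. MH. The 8 homeostatic genes had similar medians, 0.65, -0.045 and 0.29. In CxWT vs. MWT the medians were -0.20 and -0.33. Among neuronal markers the glutamate transporters Slc17a7 (3.16 in Cx and 3.52 in M) and Slc17a6 (-4.30 and -3.23) followed the area markers. The part of tissue composition in the ratios of the 8 homeostatic genes was not tested.

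The genes with the profile most like the median of the 8, over 4 libraries and among 11654 genes ranked, were Vcpkmt, Uqcc2, Fars2, Myh11, Irf1, Ten1, Park7, Mtfp1, Id2 and Ecscr. Likeness was measured as the root mean square difference of log2 RPM centred on each gene, and ran from 0.040 for Vcpkmt to 0.060 for Ecscr. Of the homeostatic genes themselves, Cx3cr1 was nearest to that profile at 0.049 and Aif1 farthest at 0.41. The median profile had 0.35 in CxH and 0.006 in MH, and -0.30 in CxWT and 0.071 in MWT. These genes are given as a description.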

How the data were processed

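Libraries of polyA RNA, 1 per condition from 7 pooled mice, were sequenced on a SOLiD instrument. The authors aligned the reads to mm9, kept reads on a single gene and genes covered over part of their length, and deposited raw counts, which are reads per gene without normalization. The annotation and the use of strand are not given in the sources used here. Identifiers were matched to symbols for 12690 of 12700 genes, and to GENCODE vM1 for 12441, which gave positions, transcript length and GC content.

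RPM are counts over the aligned reads of each library (56.6% to 61.0% lay on genes), and RPKM divide these by the length of the longest coding transcript. Counting SE and exact Poisson or Clopper-Pearson 95% intervals were computed. A count of 0 was set to 1 in ratios. A gene was counted at a log2 ratio of 0.7 or more in size, the fold threshold of the study, without a p-value. The members and lists were chosen with earlier results of these data known. Companion genes named are the highest and lowest of each list in the Cx and M ratios (mean of at least 20 reads). Also named are the ligands, receptor subunits and adaptor of the group, Ids, the 10 nearest genes and Ly6c2, which gave most reads of its list. A result of 1 companion gene is not reported here. Alternatives were column totals, TMM (edgeR 4.0.16) and DESeq2 1.42.0 size factors, at least 100 reads in both libraries, 0.5 added to counts, a log2 threshold of 1 and a correction for GC content and length. R 4.3.3 and Python 3.11.15 with scipy 1.17.1 were used, and the steps were tested on simulated data.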

Additional observations from a re-analysis of the deposited data

Results flagged for a closer look

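Of the 8 genes, 4 had log2 ratios of opposite direction in CxH vs. CxWT and in MH vs. MWT. The Cx ratio minus the M ratio was 2.21 ± 0.33 (counting SE) for Aif1, 1.23 ± 0.12 for Olfml3, 0.62 ± 0.12 for Siglech and 0.24 ± 0.091 for Sall1. The M ratio of Siglech, -0.11 ± 0.085, lay within 2 counting errors of 0 and was 0.22 after the correction for GC content and length, where Csf1r (-0.0065 in M) took its place among the 4. With column totals 6 genes had opposite directions, P2ry12 and Cx3cr1 included, and with the filter on reads, which leaves out Aif1, it was 3 of 7. The difference between the areas was not tested. Ids and the area markers did not follow the labels in all 4 libraries, so these are differences between libraries as labelled.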

How the results depend on the processing

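As labelled, the Cx and M libraries of a genotype come from the same mice. No paired analysis was possible, because the mice were pooled into 1 library per condition, and the ratios come from no test. In CxH vs. CxWT all 8 genes were above 0 under every scaling tried, the correction for GC content and length included, and so were the 7 left by a filter of at least 100 reads in both libraries. The number higher past the threshold, 3, became 5 with TMM factors, 5 with DESeq2 size factors and 1 at a log2 threshold of 1. It was 4 with the correction for GC content and length, where P2ry12 and Siglech passed and Tmem119 did not, and 2 with the filter. The number higher in CxH vs. MH, 1, became 0 at a threshold of 1 and 0 with the filter on reads, which removes Aif1. The number lower in CxWT vs. MWT, 1, became 2 with column totals, 2 with TMM factors, 2 with DESeq2 size factors and 2 with the correction for GC content and length, where Olfml3 also passed, and 0 with the filter. The number lower in MH vs. MWT, 1, became 0 with the filter. In MH vs. MWT the genes stayed at 4 above and 4 below 0 except with column totals, which gave 2 above and 6 below, and the filter, which gave 4 above and 3 below. The median of all genes in CxH vs. CxWT, -0.093, was 0.00025 with TMM factors. Of the values of single genes under the alternatives, 36 moved by more than the reach of their counting interval, and 247 did not. The 247 include the values under the filter on reads, which leaves a ratio unchanged by construction. The pooled count is therefore no measure of how steady the values were under a single setting. Depth limits Aif1, whose 49 to 125 reads give the widest intervals of the group.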
